A study of Mus musculus with 3 samples.

Results

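Septin transcripts were followed in mouse retinal horizontal cells from pups 6 days old (P6), 8 days old (P8) and 11 days old (P11). The 10 septin genes Sept2 to Sept11 were taken by their symbols, which stand on 11 of the 32285 features of the count tables because Sept2 is listed under 2 gene IDs. Horizontal cells are inhibitory interneurons whose processes meet rod and cone terminals in the outer retina. Retinas carried the Cx57icre allele, a Cre driver built on the connexin 57 gene, and the Cre-dependent red fluorescent reporter Ai14 at every age, so there was no group without them. Cells were freed with papain, sorted by fluorescence and captured in droplets with the 10x Genomics 3' chemistry, 1 library per age. The number and sex of the mice behind each library were not stated in the labels.

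Septins are GTP-binding proteins that join into rod-shaped complexes, and these join end to end into filaments and rings beneath membranes. A complex usually draws its subunits from different sequence groups, named after SEPT2, SEPT3, SEPT6 and SEPT7. Septin filaments act as scaffolds and as barriers to diffusion in the membrane, and in neurons they are known from the bases of dendritic protrusions, axon branch points and presynaptic terminals.

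A barcode counted as a horizontal cell when it had at least 1000 detected genes, at most 10% of its unique molecular identifiers (UMIs, each marking 1 captured transcript) from mitochondrial genes, and a UMI of at least 2 of the transcription factor genes Lhx1, Onecut1 and Onecut2. The P6, P8 and P11 libraries gave 7145, 3153 and 4757 such cells, which was 94.4, 96.1 and 96.2% of the barcodes that passed the first 2 limits. Their summed depth was 82305608, 62520239 and 103160766 UMIs, and their median depth was 12161, 20671 and 22106 UMIs. Horizontal cell markers that the rule did not use were present at each age: Calb1, the calbindin gene, stood at 702, 1714 and 2952 counts per 1000000 UMIs (CPM), and Prox1 at 932, 973 and 1336 CPM. Defining markers of other retinal cells were near 0, with summed rod markers at 5.82 to 7.62 CPM, bipolar markers at 2.44 to 5.53, Müller glia markers at 5.68 to 11.1 and astrocyte markers at 0.00969 to 0.207. The amacrine list reached 499 to 523 CPM, almost wholly through Pax6 and Slc32a1. The libraries shared 8 to 15 barcodes by pair, 4 to 8 of them among horizontal cells.

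Each age is a single library, so a difference between ages cannot be told apart from one between libraries, and no test between ages was possible. Intervals are 95% intervals for counting error only, exact except for differences between log2 ratios. The 3' chemistry is meant to count each captured transcript once, and levels were compared between genes without division by length. Whether intron reads counted is not given, so comparisons of level between genes of unlike span carry that uncertainty.

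The pair of septin genes with the most transcripts, Sept7 and Sept4, map to chromosome 9 and chromosome 11. Sept7 (ENSMUSG00000001833) spans 25252439 to 25308571 on the plus strand and Sept4 (ENSMUSG00000020486) spans 87568903 to 87590539 on the plus strand of mm10. The 250 bases before 1 annotated start of each gene are printed to set them side by side; both windows are free of annotated exons, and capitals mark CG pairs. They come from RefSeq on GRCm38.p6, the assembly called mm10, as chr11:87578139-87578388 for Sept4 and chr9:25251741-25251990 for Sept7, both read on the plus strand from 5′ to 3′.
Sept4: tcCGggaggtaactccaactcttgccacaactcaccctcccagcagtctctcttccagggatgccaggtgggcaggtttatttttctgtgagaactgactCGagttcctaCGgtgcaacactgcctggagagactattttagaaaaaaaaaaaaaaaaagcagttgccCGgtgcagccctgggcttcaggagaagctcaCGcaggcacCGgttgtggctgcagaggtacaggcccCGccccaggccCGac
Sept7: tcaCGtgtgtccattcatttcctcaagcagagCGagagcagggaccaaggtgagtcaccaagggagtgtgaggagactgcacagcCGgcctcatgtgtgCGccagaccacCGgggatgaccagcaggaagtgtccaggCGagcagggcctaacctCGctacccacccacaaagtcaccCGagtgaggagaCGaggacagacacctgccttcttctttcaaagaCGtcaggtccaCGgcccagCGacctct
The Sept4 window held 8 CG pairs and the Sept7 window 12, against a median of 6 over 32851 promoter windows. Across the 4 listed Sept4 starts the number ran from 1 to 9, and the second Sept7 window, which includes exonic bases, held 36. Of the 16 windows that RefSeq lists for 7 of the 10 genes, 0 held ATCGAT or ATCAAT, letters bound by Onecut factors, or TAATTA, letters bound by LIM homeodomain factors such as Lhx1, on either strand. These 3 words were found in 0.728, 6.72 and 4.84% of all promoter windows. The counts cannot tell which start a transcript came from.

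Horizontal cells carried much septin RNA, and nearly all of the septin UMIs counted came from 4 genes. Sept2 and Sept5 each share exonic bases with another feature on the same strand and may be undercounted. The 10 genes summed to 5814 CPM (5797 to 5830.4) in P6 cells, 6981 CPM (6960.4 to 7002) in P8 cells and 8591 CPM (8573 to 8609) in P11 cells. Sept7, Sept4, Sept6 and Sept8 together left only a thin remainder to the other 6 genes, as the plot of the make-up shows. In cells thinned to 3000 UMIs each, so that depth was equal, the median cell held 17, 20 and 25 septin UMIs in the P6, P8 and P11 libraries, and 0 of 6768, 3056 and 4667 cells had no septin UMI, which allows shares of up to 0.0443, 0.0982 and 0.0643% by the limit of 3 cells for a count of 0, and 0.0545, 0.121 and 0.0790% by the exact two-sided 95% interval. The thinning left out 377, 97 and 90 shallower cells.

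**Figure D1:**
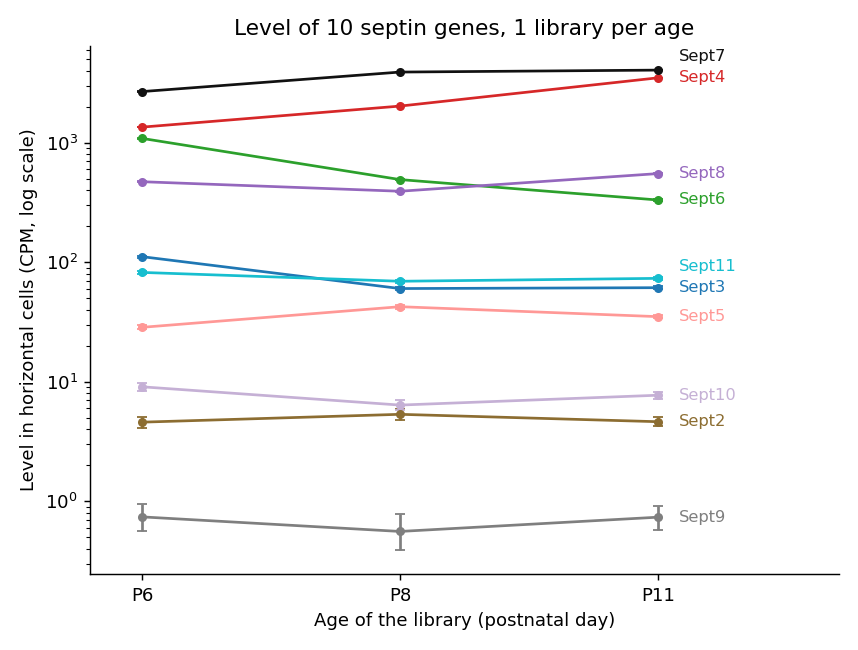
Level of each of the 10 septin genes in horizontal cells (CPM, log axis) in the P6, P8 and P11 libraries, with bars for the 95% Poisson interval of the count. Sept7 and Sept4 stand highest at every age, Sept6 is lower at each later age, and Sept9 stays under 1 CPM.

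Sept7, the sole member of its group and a subunit of most septin complexes, was the most abundant septin at every age. It stood at 2673 CPM (2662 to 2684) in P6 cells, 3892 CPM (3877 to 3908) in P8 cells and 4042 CPM (4029.9 to 4054) in P11 cells, which placed it 21st, 16th and 15th among all features. The difference lay between P6 and P8, where the ratio was 1.46 (1.45 to 1.46), while P11 over P8 was 1.04 (1.03 to 1.04). The sign of that small later step turned under TMM scaling, to a log2 ratio of -0.02.

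Sept4 of the SEPT2 group showed the highest ratio of the family. The rule that set the topic named this rise, so the ratio, rank and excess of Sept4, and counts that include it, are a description only. The gene is known for a septin of brain and of the sperm tail, and for a splice form, ARTS, that binds the caspase inhibitor XIAP. It stood at 1348 CPM (1340.2 to 1356) in P6 cells, 2021 CPM (2010.4 to 2033) in P8 cells and 3484 CPM (3473 to 3495) in P11 cells, ranking 67th, 39th and 22nd among features. Each later library was above the one before it, with a ratio of 1.4995 (1.49 to 1.51) for P8 over P6 and 1.72 (1.71 to 1.73) for P11 over P8. P11 had 2.58 times the P6 level (2.57 to 2.60; log2 ratio 1.37), and 83 of the 7161 features tested, those that reached 20 CPM in one of the ages compared, had a higher ratio. Counts summed per gene do not separate ARTS from the other splice forms.

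The other SEPT2 group genes had low counts, which overlapping features make uncertain. Sept5, whose protein binds syntaxin and is known as a brake on vesicle release, stood at 28.5, 42.5 and 35.0 CPM in the P6, P8 and P11 libraries. Gp1bb, a platelet receptor gene, shares 48.6% of the exonic bases of Sept5 on the same strand and stood at 10.6, 9.09 and 8.31 CPM. Reads in the shared bases cannot be assigned to a single gene, so the Sept5 level is uncertain as well. Sept2, a core subunit in many cell types, was listed at only 4.59, 5.34 and 4.63 CPM in the P6, P8 and P11 libraries, all from ENSMUSG00000026276. The second Sept2 feature, ENSMUSG00000116048, lies wholly within the exons of the first on the same strand and had 0 UMIs in horizontal cells at each age. A read in the shared 41.8% of exonic bases cannot be assigned to a single gene, so the Sept2 level is uncertain and is not a measure of low expression.

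The SEPT6 group contained the gene with the lowest ratio. Sept6, known in chick sensory neurons from axonal sites where branches form, stood at 1085 CPM (1078 to 1092) in P6 cells, 491 CPM (485 to 496) in P8 cells and 331 CPM (328 to 335) in P11 cells. Each later library was below the one before it, by 2.21-fold for P8 over P6 and 1.48-fold for P11 over P8, and P11 was 3.28-fold below P6 (3.23 to 3.32). Markers of ganglion cells, led by Slc17a6, were also lower at each later age, summing to 48.0, 24.2 and 17.7 CPM in the P6, P8 and P11 libraries, and their part in the Sept6 and Sept3 ratios was not tested. An opposite-strand gene, Gm15008, covers 3.12% of the exonic bases of Sept6. Sept8, whose protein has been tied to the vesicle protein VAMP2, stood at 471, 392 and 551 CPM in the P6, P8 and P11 libraries, lowest in the middle library. Under TMM scaling its P8 over P6 log2 ratio of -0.27 became 0.01.

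Sept11, known from dendrites and inhibitory synapses of hippocampal neurons, was nearly level, with 82.1, 69.3 and 73.3 CPM in the P6, P8 and P11 libraries. Its P11 over P6 log2 ratio of -0.16 turned to 0.03 under TMM scaling, as did its P8 over P6 value of -0.25. Sept10 stood at 9.08, 6.38 and 7.72 CPM. Sept6 and Sept8 thus traded places in the order of levels, with Sept6 above Sept8 at P6 and P8 and below it at P11.

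The SEPT3 group was sparse. Sept3, a septin found mainly in neurons, stood at 111 CPM (109 to 114) in P6 cells, 60.2 CPM (58.3 to 62.2) in P8 cells and 61.2 CPM (59.7 to 62.7) in P11 cells, so that the difference lay between P6 and P8. Its P11 over P8 log2 ratio of 0.02 became -0.06 under TMM scaling. Sept9, which caps or extends complexes in many dividing cells, was at 0.741, 0.560 and 0.737 CPM from 61, 35 and 76 UMIs, and no order of its ages could be read at that depth.

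**Figure D2:**
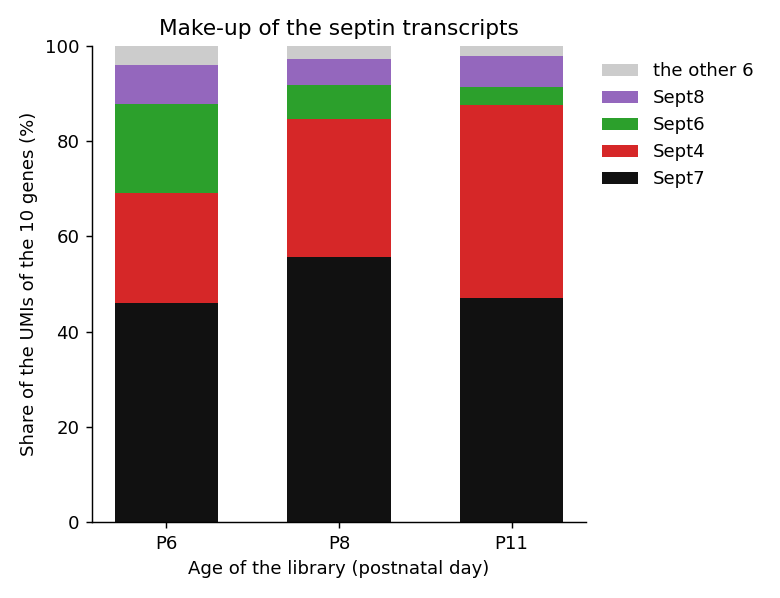
Share of the UMIs of the 10 septin genes (%) that came from Sept7, Sept4, Sept6, Sept8 and the remaining genes together, in horizontal cells of the P6, P8 and P11 libraries. Sept4 takes 23.2, 29.0 and 40.6% and Sept6 18.7, 7.03 and 3.86%, while Sept7 takes 46.0, 55.8 and 47.1%.

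The make-up of the septin pool therefore differed between the ages. Sept4 supplied 23.2% (23.1 to 23.3), 29.0% (28.8 to 29.1) and 40.6% (40.5 to 40.7) of septin UMIs in the P6, P8 and P11 libraries, and Sept6 supplied 18.7, 7.03 and 3.86%. By sequence group, the SEPT2 group held 23.8, 29.6 and 41.0% of the counted septin UMIs and the SEPT6 group 28.3, 13.7 and 11.2%. The SEPT7 group held 46.0, 55.8 and 47.1% and the SEPT3 group 1.93, 0.870 and 0.721%. The SEPT2 group share carries the uncertainty of the Sept2 and Sept5 counts. These shares compare septins within the same cells and do not depend on how libraries are scaled. On that footing the P11 over P6 log2 ratio of Sept4 exceeded that of the other 9 genes summed by 1.18 (1.16 to 1.19), and it exceeded that of every other member, by 0.77 against Sept7 at the least and 3.08 against Sept6 at the most. From P6 to P8, however, Sept4 and Sept7 differed little, with a gap in log2 ratio of 0.04 (0.03 to 0.06), and Sept4 and Sept5 not detectably, with a gap of 0.01 (-0.07 to 0.09). The order of Sept4 and Sept7 turned in 2 alternatives: in cells with 1 to 3% Malat1 the P8 over P6 log2 ratio was 0.44 for Sept4, 0.59 for Sept7 and 0.60 for Sept5, and without cells holding 2 markers of another class it was 0.41 for Sept4 and 0.43 for Sept7. From P8 to P11 the gap between Sept4 and Sept7 was 0.73 (0.72 to 0.74).

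Against all features, 7 septin genes reached that minimum in each comparison, and Sept2, Sept9 and Sept10 did not. For P11 over P6, 2 of the 7 were at least 1.5-fold higher, Sept4 and Sept7, where 7.35% of all features tested were, and 2 were at least 1.5-fold lower, Sept6 and Sept3, where 12.3% were. Sept7, at 1.51-fold, lay just past that limit. At 2-fold, 1 of 7 was higher, Sept4 (2.36% of features), and 1 was lower, Sept6 (4.71%). The median log2 ratio was 0.23 over the 7 genes and -0.08 over all 7161 features.

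For P8 over P6, 0 of 7 were at least 1.5-fold higher (7.97% of features) and 2 were lower, Sept6 and Sept3 (21.7%), with medians of -0.25 over the 7 genes and -0.14 over 7067 features. At 2-fold, 0 were higher (1.73%) and 1 was lower, Sept6 (8.55%). Sept4 at 1.4995-fold, Sept5 at 1.49-fold and Sept7 at 1.46-fold lay just short of the limit, and TMM scaling, which raised every P8 over P6 log2 ratio by 0.28, put all 3 past it. Median-of-ratios scaling did the same and left only Sept6 past the limit on the lower side, with Sept3 at a log2 ratio of -0.57. The share of all features past 1.5-fold was not counted under either scaling. The 1.5-fold shares given here are therefore not the background of calls made under scaling. For P11 over P8, 1 of 7 was at least 1.5-fold higher, Sept4 (10.4%), and 0 were lower (4.55%), with medians of 0.05 and 0.07, the second over 6770 features; under TMM scaling Sept6 was lower by that measure. At 2-fold, 0 were higher (2.04%) and 0 lower (0.975%). Over all features at least 2-fold apart between P11 and P6, 33.4% were higher at P11, a share that TMM scaling moved to 55.0%.

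**Figure D3:**
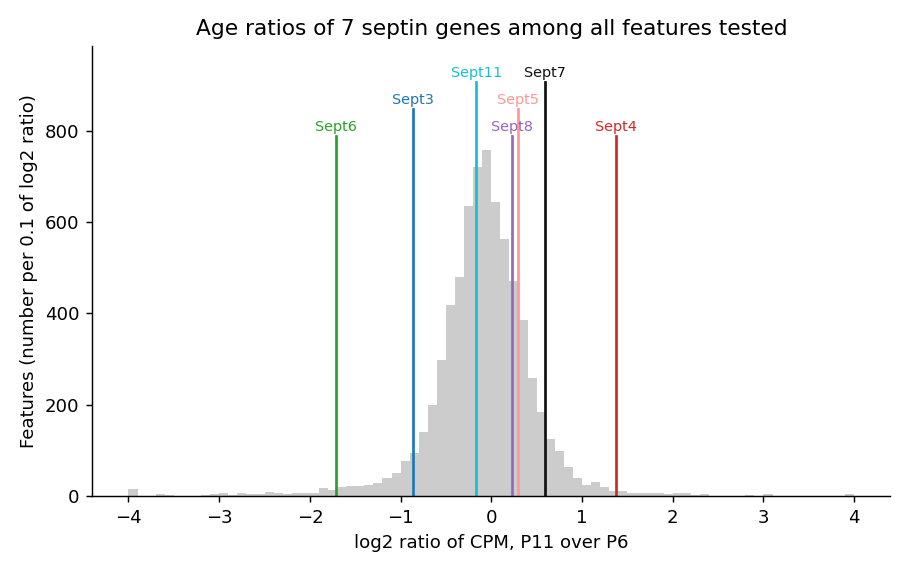
Number of features (grey bars, per 0.1 of log2 ratio, values past 4 placed at the ends) against the log2 ratio of P11 over P6 for the 7161 features tested, with a coloured line for each of the 7 septin genes tested. Sept4 at 1.37 and Sept6 at -1.71 lie on opposite flanks, and Sept5, Sept8 and Sept11 lie in the bulk.

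Gene span moved with the P8 ratios. Features were put into 5 classes of equal size by span. In the shortest class (median 4.82 kb) the median P8 over P6 log2 ratio was 0.27, and in the longest (164 kb) it was -0.73. Sept4 at 21.6 kb fell in the middle class, whose median was -0.10, and Sept6 at 80.5 kb, Sept7 at 56.1 kb and Sept11 at 83.0 kb fell in the fourth, whose median was -0.29. Sept6 and Sept7 thus lay on opposite sides of the median of features of like span, with log2 ratios of -1.14 and 0.54. For P11 over P8 the class medians ran the other way, from -0.26 in the shortest class to 0.43 in the longest. In that comparison Sept4 was at 0.79 in a class with a median of 0.06. Sept6 was at -0.57 and Sept7 at 0.05 in a class with a median of 0.19. For P11 over P6 the class medians ran from 0.03 to -0.29. Malat1 was also lowest in the P8 library, at 20337, 15319 and 21409 CPM over the ages. The part of span and of Malat1 in the septin ratios was not tested.

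Cell by cell, the Sept4 difference was spread over most of the cells. In cells thinned to 3000 UMIs the median Sept4 count was 4, 6 and 10 in the P6, P8 and P11 libraries, and the range from the 10th to the 90th percentile was 1 to 7, 2 to 10 and 5 to 16. The distributions overlapped, yet 93.5% of P11 cells (92.8 to 94.2) and 63.8% of P8 cells lay above the P6 median, where 37.5% of the P6 cells themselves did. Sept4 exceeded Sept7 in 12.2, 12.4 and 35.8% of P6, P8 and P11 cells.

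Sept6 moved the other way over the cells. Its UMIs outnumbered those of Sept4 in 33.7, 4.52 and 0.300% of P6, P8 and P11 cells. At least 1 Sept6 UMI was found in 94.1% of thinned P6 cells (93.5 to 94.7), 73.9% of P8 cells (72.3 to 75.4) and 60.7% of P11 cells (59.3 to 62.1). Without thinning, these shares were 98.3, 97.1 and 97.2%, and the later libraries were deeper. A Sept4 UMI was found in 96.2, 99.0 and 99.7% of thinned cells and a Sept7 UMI in 99.6, 99.9 and 99.9%, so for these genes the share says less than the count. The variance of the Sept4 count was 1.52, 1.72 and 1.80 times its mean in the P6, P8 and P11 libraries, that of Sept7 1.35, 1.52 and 1.40 times, and that of Sept6 1.27, 1.17 and 1.06 times.

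**Figure D4:**
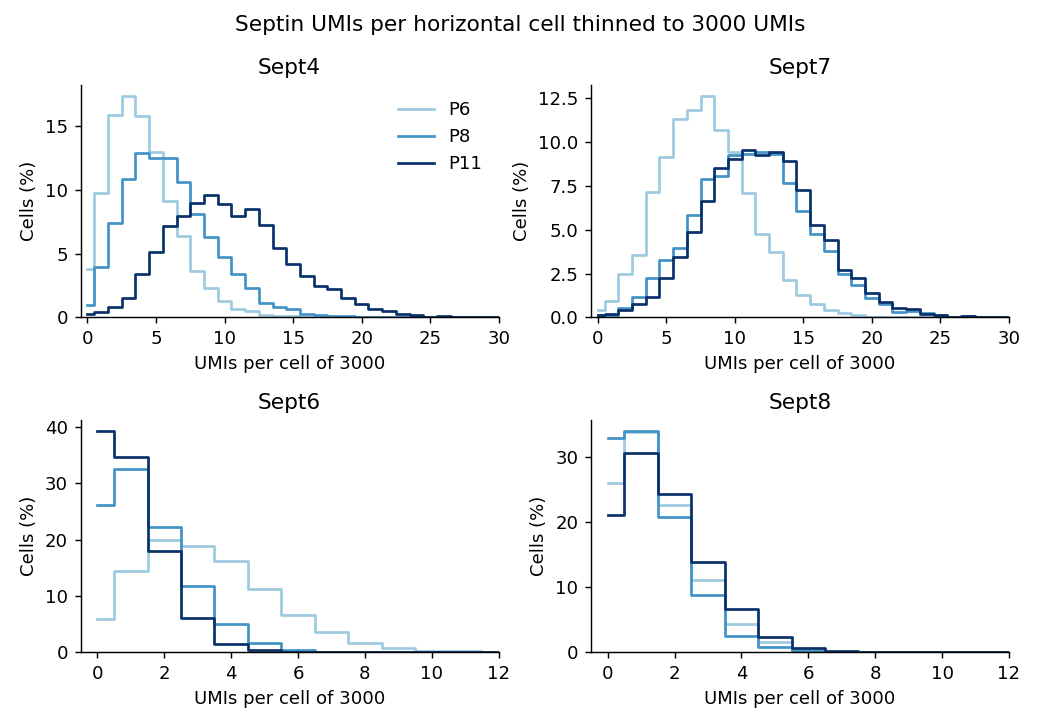
Share of horizontal cells (%) by the number of Sept4, Sept7, Sept6 and Sept8 UMIs per cell after thinning each cell to 3000 UMIs, with a line for each of the P6, P8 and P11 libraries. The Sept4 curve lies farther right at each later age (medians 4, 6 and 10), the Sept7 curves of P8 and P11 nearly coincide, and the Sept6 curve lies farther left at each later age.

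Within a single library, where age is fixed, Sept4 was higher and Sept6 mostly lower in cells with more Mgarp. Mgarp encodes a mitochondrial protein and stood at 160, 2641 and 5433 CPM in the P6, P8 and P11 libraries in these cells. Cells with a Mgarp UMI were divided at their own median. At P6, where that median was 1, thinned cells with no Mgarp UMI, with 1, and with more than 1 had 1267 CPM (1249 to 1286), 1459 (1422 to 1498) and 1679 (1625 to 1734) of Sept4, and 1114, 1027 and 994 CPM of Sept6, of which the last 2 have overlapping intervals. These were 4717, 1316 and 735 cells.

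At P8, 101 cells with no Mgarp UMI had 1574 CPM of Sept4 (1436 to 1722), 1691 cells with 1 up to that median, here 8, had 1797 (1760.1 to 1834) and 1264 cells above it had 2291 (2243 to 2340.1), with 653, 515 and 429 CPM of Sept6. At P11 every thinned cell had a Mgarp UMI, and the 2166 cells above the median of 16 had 3865 CPM of Sept4 (3818 to 3913) against 3141 (3101 to 3181) in the 2501 cells at or below it. Sept6 at P11 was 318 CPM (304 to 332) in the cells above the median and 329 (316 to 342) in the rest, a difference not detectable at this depth. Sept7 stood at 2598, 2709 and 2795 CPM over the P6 bins and 3327, 3729 and 3958 CPM over the P8 bins. At P11 it was 3948 CPM above and 4023 CPM at or below the median, with overlapping intervals. The P6 cells with more than 1 Mgarp UMI had less Sept4 and more Sept6 than the P11 cells at or below the P11 median of 16. These bins were not matched on Mgarp, so they do not compare the ages at a like Mgarp count.

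The nuclear RNA Malat1 also differed between these bins, at 20179, 18843 and 17203 CPM at P6 and 18802, 18956 and 14230 CPM at P8, and at 16702 CPM above and 26493 CPM at or below the median at P11. Sept4 was read again in cells with 1 to 3% of their UMIs from Malat1, a limit added after the data were seen. It was 1239, 1416 and 1554 CPM over the P6 bins, where Malat1 was 20147, 20015 and 19353 CPM. It was 1348 (1161 to 1556, from only 46 cells), 1655 and 1997 CPM over the P8 bins, where Malat1 was 18993, 19162 and 18289 CPM. At P11 it was 3706 CPM above and 3212 CPM at or below the median, where Malat1 was 18815 and 20372 CPM. The difference in Sept4 between the P11 bins was smaller within that limit, and the part of Malat1 in it was not tested. Sept6 within the limit was 1135, 1040 and 1012 CPM at P6 and 638, 520 and 438 CPM at P8. Sept7 was 2654, 2734 and 2839 CPM at P6 and 3486, 3847 and 4175 CPM at P8. At P11, Sept6 was 320 CPM above and 344 at or below the median, and Sept7 4067 and 4119. These P11 bins held 953 and 1194 cells, not the same set as the 2123 P11 cells of the Malat1 alternative below.

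**Figure D5:**
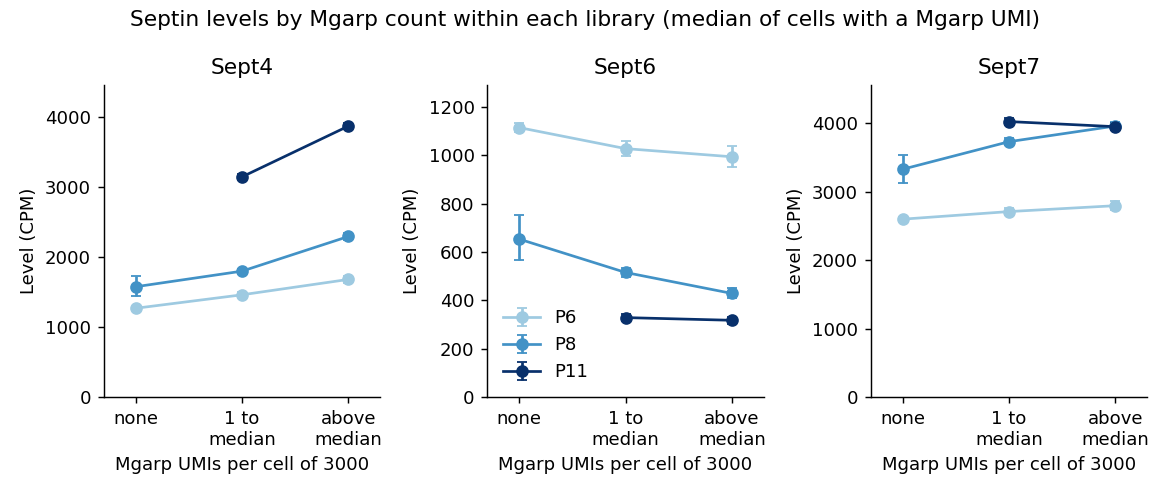
Level (CPM, linear axis from 0) of Sept4, Sept6 and Sept7 in thinned horizontal cells with no Mgarp UMI, with 1 up to the median of the library's cells that had any, and above that median, with a line for each library and bars for the 95% Poisson interval. The Sept4 lines slope up in all 3 libraries, the Sept6 lines slope down at P6 and P8, and the P11 line has no point at none because no cell lacked Mgarp.

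Septins were also read in barcodes outside the cell rule, where free horizontal cell RNA and RNA of the marked cells themselves cannot be told apart. Barcodes with no UMI of the 3 transcription factor genes but with at least 3 rod markers were 20, 29 and 33 in number in the P6, P8 and P11 libraries, with median depths of 1970.0, 2382 and 2011 UMIs. Horizontal cells had 1348, 2021 and 3484 CPM of Sept4, against 212 (110 to 371), 174 (92.8 to 298) and 471 (333 to 646) in those barcodes, from 12, 13 and 38 UMIs. Horizontal cells had 2673, 3892 and 4042 CPM of Sept7, against 389, 402 and 260 in them. The 22 P6 barcodes with at least 3 Müller glia markers had 339 CPM of Sept4 (210 to 518) and 355 of Sept7. Free RNA was not subtracted.

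Sept3 was higher in bipolar-marked barcodes than in horizontal cells, and not in rod- or Müller-marked ones. Horizontal cells had 111 CPM at P6 and 61.2 at P11, against 211 (134 to 317) in 35 P6 barcodes and 168 (103 to 259) in 25 P11 barcodes that carried at least 3 bipolar markers and none of the 3 genes. Horizontal cells had 111, 60.2 and 61.2 CPM of Sept3 in the P6, P8 and P11 libraries, against 0, 13.4 and 0 in the rod-marked barcodes, and against 48.4 in the P6 Müller-marked ones. In the bipolar-marked barcodes Sept4 was at 183 and 160 CPM, and Sept9 and Sept10 rested on 0 to 3 UMIs.

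Septin partner genes were examined with the same limits. Of a list of 13 genes, 5 reached 20 CPM in each comparison, and 0 of the 5 were at least 1.5-fold higher or lower in any of them, where for P11 over P6 7.35% of all features were higher and 12.3% lower. TMM and median-of-ratios scaling put 2 of the 5, Cdc42ep4 and Xiap, at least 1.5-fold higher for P11 over P6. Each scaling raised every P11 over P6 log2 ratio by 0.20. The share of all features past that fold was not counted under either scaling, so 7.35% is not the background of these 2. The median P11 over P6 log2 ratio of the 5, without such scaling, was 0.00. Cdc42ep4, which encodes a Borg protein that binds septins and holds them in Bergmann glia of the mouse cerebellum, stood at 282, 269 and 391 CPM in the P6, P8 and P11 libraries, a P11 over P6 ratio of 1.39 (1.36 to 1.41). Cdc42, the GTPase upstream of Borg proteins, stood at 629, 729 and 629.6 CPM, and Xiap, whose product ARTS binds, at 70.6, 69.0 and 93.6 CPM. Map4, a microtubule protein gene, stood at 291, 249 and 282 CPM and Stx1a, the syntaxin gene, at 35.2, 31.5 and 30.9 CPM.

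The other 8 partner genes were below that minimum. Arhgef18, the gene of a septin-bound guanine nucleotide exchange factor, stood just under it at 19.97, 15.4 and 19.3 CPM in the P6, P8 and P11 libraries. The other Borg genes Cdc42ep1, Cdc42ep2, Cdc42ep3 and Cdc42ep5 were at 7.17 CPM or less at every age. Anln, the anillin gene, was at 0.271 to 0.364 CPM and Slc1a3, the gene of the glutamate transporter GLAST, at 0 to 1.21.

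The features nearest to Sept4 over the 3 ages, by distance over the P8 over P6 and P11 over P8 log2 ratios among 4039 features with at least 50 CPM at some age, were Wipi1, Mfn2, Pla2g7, Mgll, Vwc2 and Lima1. Their distances were 0.09 to 0.16, over only 3 libraries. Mfn2, the gene of the mitochondrial fusion protein mitofusin 2, stood at 90.1, 130.3 and 211 CPM, and Lima1, the gene of an actin-binding LIM protein, at 207, 280.3 and 503 CPM. Over 4667 thinned P11 cells, the features with at least 50 CPM whose counts correlated most with Sept4 were Ubb, Gapdh, Mgarp, Pcsk1n and Tuba1a, with Pearson r of 0.34, 0.33, 0.32, 0.31 and 0.30; these cells share a library and an equal depth.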

How the data were processed

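Single-cell RNA was measured in 3 droplet libraries of sorted retinal cells, 1 per age. The authors deposited raw UMI counts for 9896, 4635 and 5517 barcodes in the P6, P8 and P11 libraries, which came from Cell Ranger 7.1.0 per the file headers. The build was mm10, per the submitters' processing notes. Which annotation release was used, and whether intron reads counted, is not given in the sources used here. CPM are the summed counts of a library's horizontal cells over all their UMIs. Gene positions came from GENCODE M21 on the same build.

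Intervals are exact Poisson for sums, exact conditional binomial for ratios, Clopper-Pearson for shares, and normal, from the counts, for differences between log2 ratios. All cover counting error only. Ratios were checked on simulated counts. Cells were thinned without replacement to 3000 UMIs. No doublet caller was run; an alternative left out cells over 2 times the median UMIs (102, 27 and 35 cells). TMM factors came from edgeR 4.0.16. Other steps used numpy 2.4.6, scipy 1.17.1 and pandas 2.3.3.

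The values of 1 listed partner gene are not reported here. Members, lists and comparisons were chosen with earlier results of these data known, and the rise of Sept4 against the other septins was part of the rule that set the topic. Named were the 10 genes, the other septin features, the partner list, overlapping features, Mgarp, the 6 features nearest to Sept4 over age and the 5 that correlated most with it at P11, leaving out provisional, mitochondrial, ribosomal, Xist, Tsix and Y-linked genes.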

Additional observations from a re-analysis of the deposited data

How the results depend on the processing

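No paired analysis was possible because each age had 1 library. In the order P8 over P6, P11 over P8 and P11 over P6, the Sept4 log2 ratios of 0.58, 0.79 and 1.37 became 0.86, 0.71 and 1.57 with TMM scaling, 0.90, 0.67 and 1.57 with median-of-ratios scaling, 0.41, 0.85 and 1.26 without cells holding 2 markers of another retinal class, and 0.44, 0.95 and 1.39 in cells with 1 to 3% Malat1 (chosen after seeing the data). The marker alternative kept only 1380, 201 and 203 cells, since horizontal cells also express Pax6 and Slc32a1. Means over cells gave 0.56 and 0.81 and thinned cells 0.56 and 0.80 for the first 2 ratios. Cells of at least 10000 UMIs (chosen after seeing the data) gave 0.60 for P8 over P6 and 1.38 for P11 over P6, and leaving out mitochondrial genes and Malat1 gave 0.81 for P11 over P8 and 1.39 for P11 over P6.

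The excess of Sept4 over the other 9 septins, 0.43, 0.74 and 1.18 in the same order, became 0.37, 0.82 and 1.19 without marker-holding cells, 0.25, 0.95 and 1.19 in the Malat1 range and 0.41, 0.76 and 1.16 as means over cells. It was 0.46 and 1.21 for P8 over P6 and P11 over P6 in cells of at least 10000 UMIs, and 0.73 for P11 over P8 at no more than 5% mitochondrial UMIs. The cause of these shifts was not tested. Over all 14 alternatives the P11 over P6 log2 ratio ran from 1.26 to 1.57 for Sept4, -1.80 to -1.51 for Sept6, -0.93 to -0.66 for Sept3 and 0.45 to 0.79 for Sept7. No ratio of at least 1.5-fold changed sign. Features at least 2-fold higher at P11 over P6 numbered 169, and 2262 with no minimum, 64 at 100 CPM, 274 with TMM and 271 with median-of-ratios scaling; those lower numbered 337, and 5334, 108, 224 and 222. At a minimum of 100 CPM, 5 of the 6 features nearest to Sept4 were shared. Low counts limit Sept9, Sept2 and Sept10 most, and the Sept2 count is also uncertain because of its overlapping feature.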

Other observations

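The 3 septin features outside the 10 genes were Sept1, Sept12 and Sept14. Sept1 stood at 9.76 CPM (9.09 to 10.5) in P6 cells, 9.96 CPM (9.20 to 10.8) in P8 cells and 15.0 CPM (14.3 to 15.8) in P11 cells, under the 20 CPM minimum. Sept12 had 0, 1 and 4 UMIs and Sept14 had 2, 1 and 0 UMIs over all horizontal cells of the P6, P8 and P11 libraries.

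Septin counts correlated weakly with each other between cells of a library. Over 6768 thinned P6 cells the Pearson correlation of Sept4 was 0.09 with Sept7, 0.03 with Sept6 and -0.03 with Sept8. Over 4667 thinned P11 cells these values were -0.01, 0.02 and -0.06. The cells of each set share a library and an equal depth, and the values are a description only.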
